A study of Mus musculus with 12 samples.

Results

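Receptors for acetylcholine, dopamine, serotonin and noradrenaline were examined in the hippocampus of adult mice after exposure to ethanol in early pregnancy. Members were all probes whose platform gene symbol begins with Chrm, Chrna, Chrnb, Drd, Htr, Adra or Adrb followed by a digit. This rule found 68 probes for 39 of the 19057 genes that the platform annotation names, and none of the probes carried an Adrb symbol, so beta adrenergic receptors were not analysed here. The detection p-value sets a probe's signal against the negative controls of its array, and a probe counted as detected where it fell under 0.05 on 6 or more of the 12 arrays. By that criterion 21 probes of 16 genes were detected, 30.9% of the member probes against 44.5% of all 45281 probes.

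Total RNA came from the hippocampus of female C57BL/6J mice aged 12 weeks and was hybridised to Illumina bead arrays of 1 colour, with 1 array per sample. The EtOH group (6 arrays) stands for prenatal alcohol exposure: the mothers could take a 10% ethanol solution voluntarily from 0.5 to 8.5 days after mating. The Control group (6 arrays) is known only by that name, since the labels repeat 1 treatment text for both groups. Sample titles carry 1 of 2 long numbers, which was taken as the chip of the array although the titles do not name it so. By that reading, 4 EtOH and 2 Control arrays lay on chip 1 and 2 EtOH and 4 Control arrays on chip 2. Every difference below is therefore EtOH minus Control adjusted for the chip. Litters are not labelled, so littermates may be among the samples and the p-values measure only the spread between these arrays. The arrays had median raw intensities of 126 to 146.9, between 19748 and 20858 probes were detected per array, and correlations between arrays ran from 0.983 to 0.994. Choroid plexus transcripts were high on EtOH 2, EtOH 4, Control 2 and Control 4, where Ttr (transthyretin, the main secreted product of that tissue) reached 15.39 to 15.47 on the log2 scale, against 7.92 to 11.57 on the other arrays. Levels are log2 intensities after background correction and quantile normalization. Levels of different probes are not comparable, and probes never detected on any array had a median level of 4.64.

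Acetylcholine acts on muscarinic receptors, which signal through G proteins, and on nicotinic receptors, which are ion channels built of alpha and beta subunits. Dopamine, noradrenaline and nearly all serotonin receptors are likewise coupled to G proteins, and the Htr3 subunits form the serotonin-gated channel. The neurons that release these transmitters lie mostly outside the hippocampus, in the basal forebrain, raphe, locus coeruleus and ventral midbrain, whereas many receptor transcripts are made by local cells. In the hippocampus these receptors set the excitability of pyramidal cells, granule cells and interneurons and shape the storage of memories.

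Detection split within each transmitter system. Of 5 muscarinic genes, Chrm1 and Chrm3 were detected, while Chrm2, Chrm4 and Chrm5 were not. Among 9 nicotinic alpha genes, Chrna1, Chrna4 and Chrna5 had a detected probe, and among 4 nicotinic beta genes Chrnb1 and Chrnb2 did. For dopamine, the 2 genes of the class that stimulates adenylyl cyclase, Drd1 and Drd5, were each detected on 12 of 12 arrays. The 3 genes of the inhibitory class were not: Drd2 and Drd3 were detected on 0 arrays and Drd4 on 2. Each dopamine receptor gene was read by 1 probe, so a gene not detected may still be expressed. For Adra2c, Chrnb2 and Htr4, 1 probe each was detected on 0 arrays although another probe of the gene was detected on 12. Serotonin receptors contributed Htr1a, Htr1f, Htr2a, Htr3a, Htr4 and Htr5b, 6 of 14 genes. Adra2c, an inhibitory adrenergic receptor, was detected, whereas Adra1b was not.

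**Figure D1:**
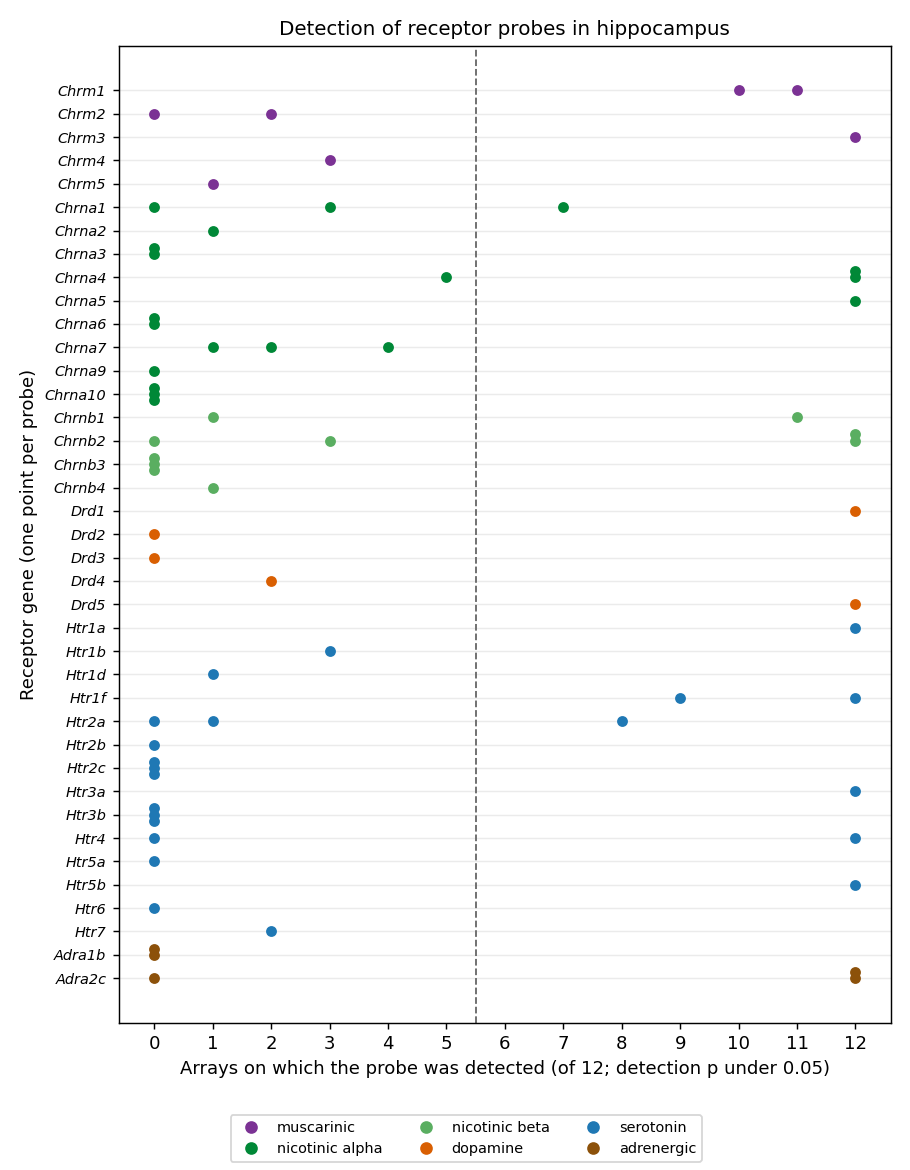
Number of arrays (of 12, x axis) on which each of the 68 probes was detected, by gene (y axis) and coloured by receptor family, with 1 point per probe. The dashed line separates the 21 detected probes on its right from the other 47; 15 probes were detected on all 12 arrays and 30 on none.

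Of the 5 dopamine receptor genes, 4 are shown by the sequence around their transcription start because they divide by signalling class. The windows below are from RefSeq (GRCm38.p6), span 250 bases before to 50 after a start, and have CG dinucleotides in capitals. Drd1 and Drd5, which were detected, come first, then Drd2 and Drd3, which were not.
Drd1, chr13:54055609-54055908, minus strand: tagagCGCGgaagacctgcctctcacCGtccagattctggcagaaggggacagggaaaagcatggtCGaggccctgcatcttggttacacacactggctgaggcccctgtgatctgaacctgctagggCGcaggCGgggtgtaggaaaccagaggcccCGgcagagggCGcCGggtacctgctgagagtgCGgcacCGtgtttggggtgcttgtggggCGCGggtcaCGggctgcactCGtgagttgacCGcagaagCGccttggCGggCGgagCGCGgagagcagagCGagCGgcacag
Drd5, chr5:38319259-38319558, plus strand: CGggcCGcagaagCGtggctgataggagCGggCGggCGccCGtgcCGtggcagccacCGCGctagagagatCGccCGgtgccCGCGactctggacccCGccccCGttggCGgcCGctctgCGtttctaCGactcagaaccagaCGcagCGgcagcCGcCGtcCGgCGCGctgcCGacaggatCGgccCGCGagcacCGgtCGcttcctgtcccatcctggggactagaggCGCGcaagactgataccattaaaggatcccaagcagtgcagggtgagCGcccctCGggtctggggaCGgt
Drd2, chr9:49340153-49340452, plus strand: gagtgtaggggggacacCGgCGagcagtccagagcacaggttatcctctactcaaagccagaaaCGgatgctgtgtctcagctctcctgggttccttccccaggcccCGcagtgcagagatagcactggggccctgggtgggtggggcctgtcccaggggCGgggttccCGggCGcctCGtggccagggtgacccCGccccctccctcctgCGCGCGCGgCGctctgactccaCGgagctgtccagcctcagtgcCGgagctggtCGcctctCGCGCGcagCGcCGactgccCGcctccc
Drd3, chr16:43761971-43762270, plus strand: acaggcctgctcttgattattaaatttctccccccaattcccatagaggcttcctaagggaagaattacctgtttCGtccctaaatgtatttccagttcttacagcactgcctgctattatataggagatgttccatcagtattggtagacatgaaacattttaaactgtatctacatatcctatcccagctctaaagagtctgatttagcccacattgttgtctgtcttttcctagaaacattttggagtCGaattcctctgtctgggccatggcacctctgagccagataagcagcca
Counted in these windows, Drd1 and Drd2 hold 23 CG dinucleotides each, Drd5 holds 38 and Drd3 holds 2. Across 32 of 39 member genes whose window was counted, the median count was 12.5 for the 12 detected genes (range 6 to 38) and 14.5 for the 20 others (range 1 to 46), against 8 for 27025 genes counted alike. For a gene with 2 windows, the one with more CG dinucleotides was taken. The counts of detected and undetected receptor genes overlapped over nearly their whole range, and this is a description of the sequence with no test.

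Between EtOH and Control hippocampus, no receptor transcript passed the test. Of the 21 detected probes, 15 had higher and 6 had lower values in EtOH, beside 51.2% with higher values among all detected probes. The number higher was 12 without the chip term, 12 on chip 1 alone and 11 on chip 2 alone. None of the 21 (0) passed limma with Benjamini-Hochberg adjustment over all 20172 detected probes, where the share called was 0% as well. The lowest adjusted p among the receptors was 1.00. At an unadjusted p under 0.05 limma also gave 0 of the 21, beside 3.48% of all probes. Differences ran from -0.20 to 0.28 on the log2 scale. Over the 16 genes, each read by the probe with the highest mean, 11 had higher and 5 lower values, a share of higher values to be read beside 52.2% of the 10936 genes tested, and the median difference was 0.03 against 0.0043 over those genes. The groups overlapped for 21 of 21 probes, and groups that did not overlap made up 0.134% of all probes.

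**Figure D2:**
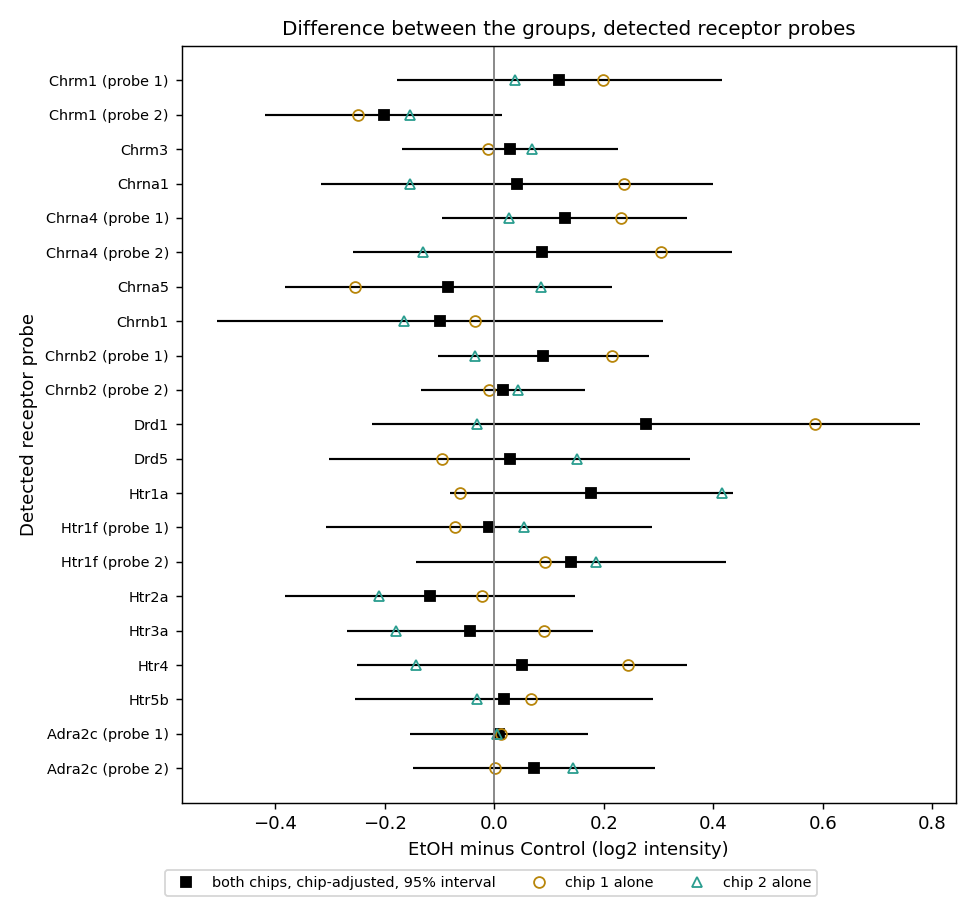
EtOH minus Control on the log2 scale (x axis) for the 21 detected probes (y axis): squares are the chip-adjusted difference with its 95% confidence interval, circles the difference within chip 1 and triangles that within chip 2. Every interval includes 0, and the within-chip values lie on opposite sides of 0 for 13 of the 21 probes.

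The 95% intervals had a median half-width of 0.27, from 0.15 for a Chrnb2 probe to 0.50 for Drd1, so a log2 difference smaller than that could not be told from 0. Within groups, the receptor probes had a median SD of 0.23 against 0.17 over all detected probes. Of the 21 probes, 7 had a mean level under 6, where the lowest value called detected was 5.24.

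Muscarinic receptors gave the smallest p among the receptors. Chrm1, the principal muscarinic receptor of forebrain pyramidal neurons, was read by 2 probes near background. On the probe with the higher mean, EtOH arrays had a lowest value of 5.19, a median of 5.52 and a highest of 5.74, and Control arrays 5.50, 5.80 and 5.83. In EtOH 6 of 6 arrays lay below the Control median, although the groups overlapped. The means were 5.48 ± 0.21 in EtOH and 5.73 ± 0.14 in Control (SD, n = 6 each). The difference was -0.20 (95% interval -0.42 to 0.01), with an exact permutation p of 0.0756 within chips (two-sided, smallest possible p 0.00444). Chip 1 alone gave -0.25, chip 2 alone -0.15, and values without background correction -0.07. The other Chrm1 probe had the opposite sign, at 5.51 ± 0.19 and 5.48 ± 0.33 (SD, n = 6 each) with a difference of 0.12 (-0.18 to 0.42), so the gene had no single direction.

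Chrm3, which couples to the Gq protein, was detected on 12 of 12 arrays. Its EtOH arrays lay between 8.36 and 8.93 and its Control arrays between 8.44 and 8.72, a difference of 0.03 (95% interval -0.17 to 0.23). Chrm2, known as an inhibitory receptor on cholinergic terminals and interneurons, was detected on 2 arrays by 1 of its 2 probes. Those arrays were EtOH 1 and EtOH 2, at 5.77 and 5.80, while the other 10 arrays lay between 4.77 and 5.26. The mean of the neocortex marker list was also highest on EtOH 1 and EtOH 2, at 9.10 and 8.97. Its genes were mixed: Cux2 and Tbr1 were highest on both arrays, whereas Rorb, Nr4a2 and Fezf2 were not. The thalamus list was mixed as well, with a mean of 9.55 on EtOH 1 and of 9.83 on EtOH 2, the highest. Its genes Slc17a6 (11.73 and 11.63), Ntng1 (10.67 and 10.65) and Rora (8.82 and 9.00) were highest on those arrays too. Prkcd was lowest of all arrays on EtOH 1 (7.60) and highest on EtOH 2 (8.49), and Calb2 and Tcf7l2 were not highest on both. The part of those transcripts in the Chrm2 values was not tested. Chrm4 was detected on 3 arrays and Chrm5 on 1.

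Of the nicotinic subunits, Chrna4 and Chrnb2 are known to form together the main high-affinity nicotine receptor of the brain. For Chrna4, EtOH arrays had a lowest value of 6.97, a median of 7.13 and a highest of 7.42, and Control arrays 6.81, 7.06 and 7.41. These ranges coincided almost wholly. The difference was 0.13 (95% interval -0.09 to 0.35), with an exact permutation p of 0.276. A second detected probe differed by 0.09, and another was detected on only 5 arrays. Without EtOH 5, the lowest EtOH array on both, the detected probes differed by 0.24 and 0.30. For Chrnb2, on its probe with the higher mean, the 12 arrays lay between 8.14 and 8.46, with means of 8.31 ± 0.08 in EtOH and 8.31 ± 0.11 in Control (SD, n = 6 each). That difference was 0.02 (95% interval -0.13 to 0.17). The other detected Chrnb2 probe spread more widely, from 7.13 to 7.86, and differed by 0.09 (-0.10 to 0.28).

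Chrna5, an accessory subunit that joins receptors built from other alpha and beta subunits, spread more widely in EtOH. Its lowest, median and highest values were 5.89, 6.06 and 6.80 in EtOH and 6.25, 6.31 and 6.56 in Control. EtOH 1, EtOH 2, EtOH 4 and EtOH 6 lay below every Control array and EtOH 5 was the highest of all. The difference was -0.08 (95% interval -0.38 to 0.21), with -0.25 within chip 1 and 0.09 within chip 2, and -0.26 without EtOH 5. Chrna7, which forms the homomeric receptor bound by alpha-bungarotoxin and is known from hippocampal interneurons, was not detected by any of its 3 probes at the limit used. They reached the detection limit on 1, 2 and 4 arrays, with levels between 4.75 and 5.86.

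Chrna1 and Chrnb1 encode subunits of the receptor at the muscle endplate. Of 3 Chrna1 probes 1 was detected, on 7 arrays, with lowest, median and highest values of 4.89, 5.35 and 5.85 in EtOH and 5.11, 5.23 and 5.61 in Control. Its difference was 0.04 (95% interval -0.32 to 0.40), at levels close to background in both groups. For Chrnb1, detected on 11 arrays by 1 of 2 probes, the values were 5.27, 5.74 and 6.19 in EtOH and 5.33, 5.69 and 6.35 in Control. Control 2 was highest and EtOH 4 next, and the difference was -0.10 (-0.51 to 0.31).

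Several subunits known from the medial habenula, a nucleus beside the thalamus, were not detected, although Chrna5, known there too, was. Chrna3 and Chrnb3 were detected on 0 arrays and Chrnb4 on 1 of 12, as was Chrna6, a midbrain subunit, on 0. Of 6 other habenula markers, 3 were not detected (Pou4f1, Irx2 and Lrrc55). The mean level of the other 3, Nwd2, Tac2 and Gpr151, ran from 6.49 to 6.75 in EtOH and from 6.30 to 6.79 in Control. Chrna9, Chrna10 and Chrna2, the first 2 known from cochlear hair cells, were detected on 0, 0 and 1 arrays.

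**Figure D3:**
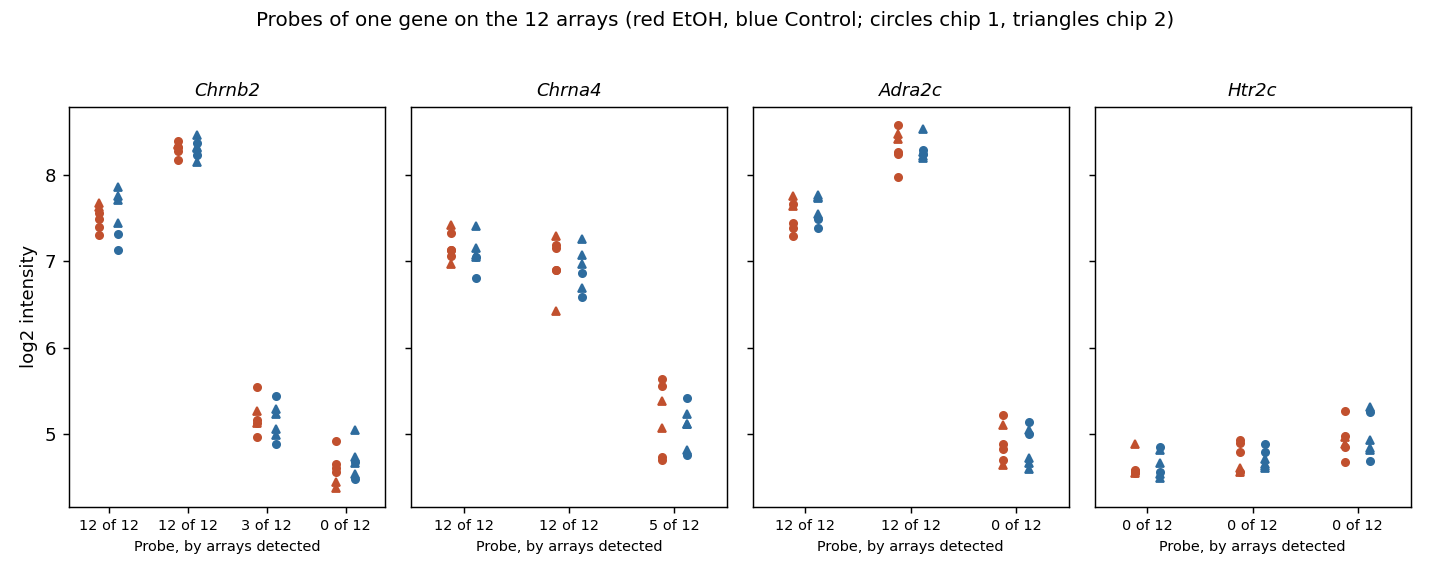
Level on the log2 scale (y axis) of every probe of Chrnb2, Chrna4, Adra2c and Htr2c on the 12 arrays; probes are labelled on the x axis by the arrays on which they were detected. For Chrnb2, Chrna4 and Adra2c, 2 probes each were detected on 12 of 12 arrays while other probes of the same gene stayed near background, and the 3 Htr2c probes were detected on none.

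Among the detected receptor probes, that of the dopamine receptor Drd1 had the widest range over arrays. Drd1, known in the hippocampus from dentate granule cells, had lowest, median and highest values of 6.34, 7.27 and 7.50 in EtOH and 6.16, 6.99 and 7.33 in Control. The lowest arrays were Control 2 and EtOH 4, 1 in each group, and the groups overlapped almost wholly. Means were 7.08 ± 0.44 in EtOH and 6.88 ± 0.41 in Control (SD, n = 6 each). EtOH exceeded Control by 0.28 (95% interval -0.22 to 0.78), with an exact permutation p of 0.307. Chip 1 alone gave 0.59 and chip 2 alone -0.03, a wider gap than for any other detected receptor probe, and leaving out Control 2 gave 0.07.

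Some transcripts of neighbouring regions were low on the same arrays as Drd1 and others were not, in values put side by side after they were seen. Slc17a6, the glutamate transporter gene of thalamic and some cortical neurons, was also lowest on Control 2 (9.39) and EtOH 4 (10.07). The mean of the neocortex list, of which 5 of 6 genes were detected, was lowest on the same arrays, at 8.29 and 8.43, and reached 9.10 in EtOH and 8.83 in Control. Nr4a2, Tbr1 and Fezf2 of the neocortex list were lowest on both arrays. Rorb, however, was lowest on Control 4 (6.615), and Cux2 on EtOH 4 (6.92) lay above EtOH 5 (6.87). EtOH 1 and EtOH 2 were highest for Drd1, Slc17a6 and that list within their group. On Control 1, however, Slc17a6 (11.27) and the neocortex mean were the highest of Control while Drd1 was 6.87. Other markers were mixed. The thalamus list mean (9.09), Ntng1 of that list (9.71) and striatal Rgs9 (8.87) and Tac1 (8.11) were also lowest on Control 2. Within EtOH these were lowest on EtOH 5, not EtOH 4. Prkcd of the thalamus list was 8.43 on Control 2, its second highest array. Striatal Ppp1r1b was highest on Control 2 (10.96) and EtOH 4 (10.84), followed by EtOH 2 (10.35) and Control 4 (10.34). These were the arrays with high Ttr. The striatum list mean on Control 2 was 8.15, within a Control range of 8.02 to 8.25. Prox1, the transcription factor gene that marks dentate granule cells, was 9.79 on Control 2, the highest of all arrays, and 8.95 on EtOH 1, the lowest. C1ql2, the other detected gene of the granule cell list, differed from Prox1 in this. It was 12.61 on Control 2, within a Control range of 12.41 to 12.75, and lowest on EtOH 2 (12.05). Ttr was high both on EtOH 2, where Drd1 was highest, and on Control 2, where it was lowest. In whole tissue, fewer cells of a type and less RNA per cell cannot be told apart, and the part of these transcripts in the Drd1 values was not tested.

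**Figure D4:**
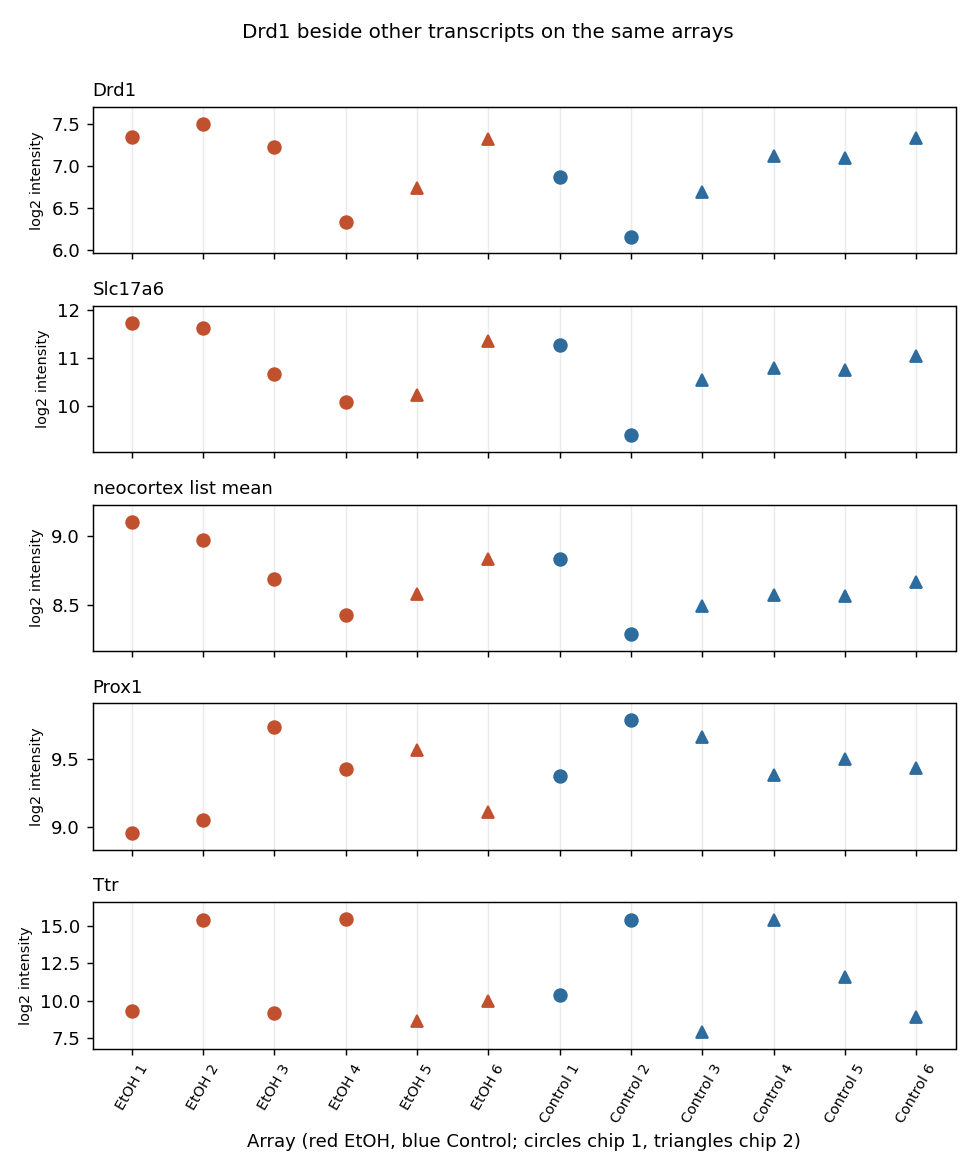
Level on the log2 scale (y axes) of Drd1, Slc17a6, the mean of 5 neocortex genes, Prox1 and Ttr on each of the 12 arrays (x axis; red EtOH, blue Control, circles chip 1, triangles chip 2). Control 2 and EtOH 4 were the lowest arrays for Drd1, Slc17a6 and the neocortex mean, whereas Ttr was high on those 2 arrays and on EtOH 2 and Control 4.

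Drd5, the other receptor of the stimulatory class, ordered the arrays differently. Its values were 5.98, 6.57 and 6.89 in EtOH and 6.27, 6.63 and 6.72 in Control (lowest, median and highest). EtOH 1, among the highest arrays for Drd1 at 7.35, was the lowest for Drd5. The difference was 0.03 (95% interval -0.30 to 0.36). Drd2, Drd3 and Drd4 stayed between 4.54 and 5.76, and Drd4 was detected on EtOH 1 and Control 5 only. Striatal tissue, where Drd2 is abundant, has Ppp1r1b, Rgs9, Penk, Tac1 and Pde10a as further markers, and all 5 were detected, with a list mean of 8.05 to 8.18 in EtOH and 8.02 to 8.25 in Control.

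Among the serotonin receptors, differences of opposite sign on the chips were found for Htr1a, Htr3a, Htr4, Htr5b and 1 Htr1f probe. Htr1a, an inhibitory receptor known from pyramidal and granule cells, had lowest, median and highest values of 8.54, 8.73 and 9.17 in EtOH and 8.49, 8.57 and 8.93 in Control. EtOH 6 was highest, followed by Control 1. The difference was 0.18 (95% interval -0.08 to 0.44), with an exact permutation p of 0.213. Within chip 1 it was -0.06 and within chip 2 it was 0.42. Leaving out EtOH 6 gave 0.05 and leaving out Control 1 gave 0.32.

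Htr1f, another inhibitory receptor, lay between 6.73 and 7.20 in EtOH, with a median of 6.92, and between 6.54 and 7.25 in Control, with a median of 6.69. All 6 EtOH arrays lay above the Control median, but Control 3 was the highest array. The difference was 0.14 (95% interval -0.14 to 0.42, exact permutation p 0.373), and it was 0.04 without EtOH 5. Its second probe, detected on 9 arrays, differed by -0.0092. Htr1b and Htr1d of the same class reached the detection limit on 3 and 1 arrays.

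Htr2a, the Gq-coupled receptor on which classic hallucinogens act, was detected on 8 arrays by 1 of 3 probes. Lowest, median and highest values were 5.12, 5.38 and 5.61 in EtOH and 5.20, 5.55 and 5.78 in Control, close to background in both. The difference was -0.12 (95% interval -0.38 to 0.15). Htr2b, also coupled to Gq, was detected on 0 arrays. Htr2c, a receptor known for strong expression in the choroid plexus epithelium, was detected on 0 of 12 arrays by each of 3 probes, with levels of 4.49 to 5.32. On EtOH 2, EtOH 4, Control 2 and Control 4, the arrays with high Ttr, its brightest probe read 4.98, 5.27, 5.26 and 4.93, against 4.68 to 5.32 on the other arrays. Htr2c signal was thus below the detection limit also on the arrays where Ttr was high.

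Htr3a, the channel subunit that marks a class of interneurons, averaged 6.82 ± 0.24 in EtOH and 6.82 ± 0.09 in Control (SD, n = 6 each), with EtOH arrays spread from 6.54 to 7.06. The chip-adjusted difference was -0.04 (95% interval -0.27 to 0.18), and the other channel subunit, Htr3b, was detected on 0 arrays by 3 probes. Htr4, which stimulates adenylyl cyclase, had lowest, median and highest values of 5.74, 5.98 and 6.18 in EtOH and 5.45, 5.94 and 6.19 in Control. Control 2 was the lowest array, and the difference was 0.05 (-0.25 to 0.35). Htr6 and Htr7, of the same signalling class, were detected on 0 and 2 arrays.

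Htr5b, known in rodents from CA1 and the habenula, was detected on all arrays. Its values were 7.42, 7.81 and 8.15 in EtOH and 7.63, 7.81 and 8.14 in Control. EtOH 1 was the highest array and EtOH 2 the lowest, and the difference was 0.02 (95% interval -0.25 to 0.29). Its relative Htr5a was detected on 0 arrays. Among CA1 markers, 4 of 4 with a probe were detected, with a list mean of 11.18 to 11.42 in EtOH and 11.13 to 11.32 in Control.

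Adra2c, which dampens noradrenaline release and acts through inhibitory G proteins, was read by 2 detected probes. On the probe with the higher mean, lowest, median and highest values were 7.97, 8.34 and 8.58 in EtOH and 8.19, 8.25 and 8.53 in Control. EtOH 2 was lowest and EtOH 3 highest, and the difference was 0.07 (95% interval -0.15 to 0.29). The other detected probe differed by 0.0089 (-0.15 to 0.17), and the third was detected on 0 arrays. Both Adra1b probes were at background, between 4.45 and 4.95.

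**Figure D5:**
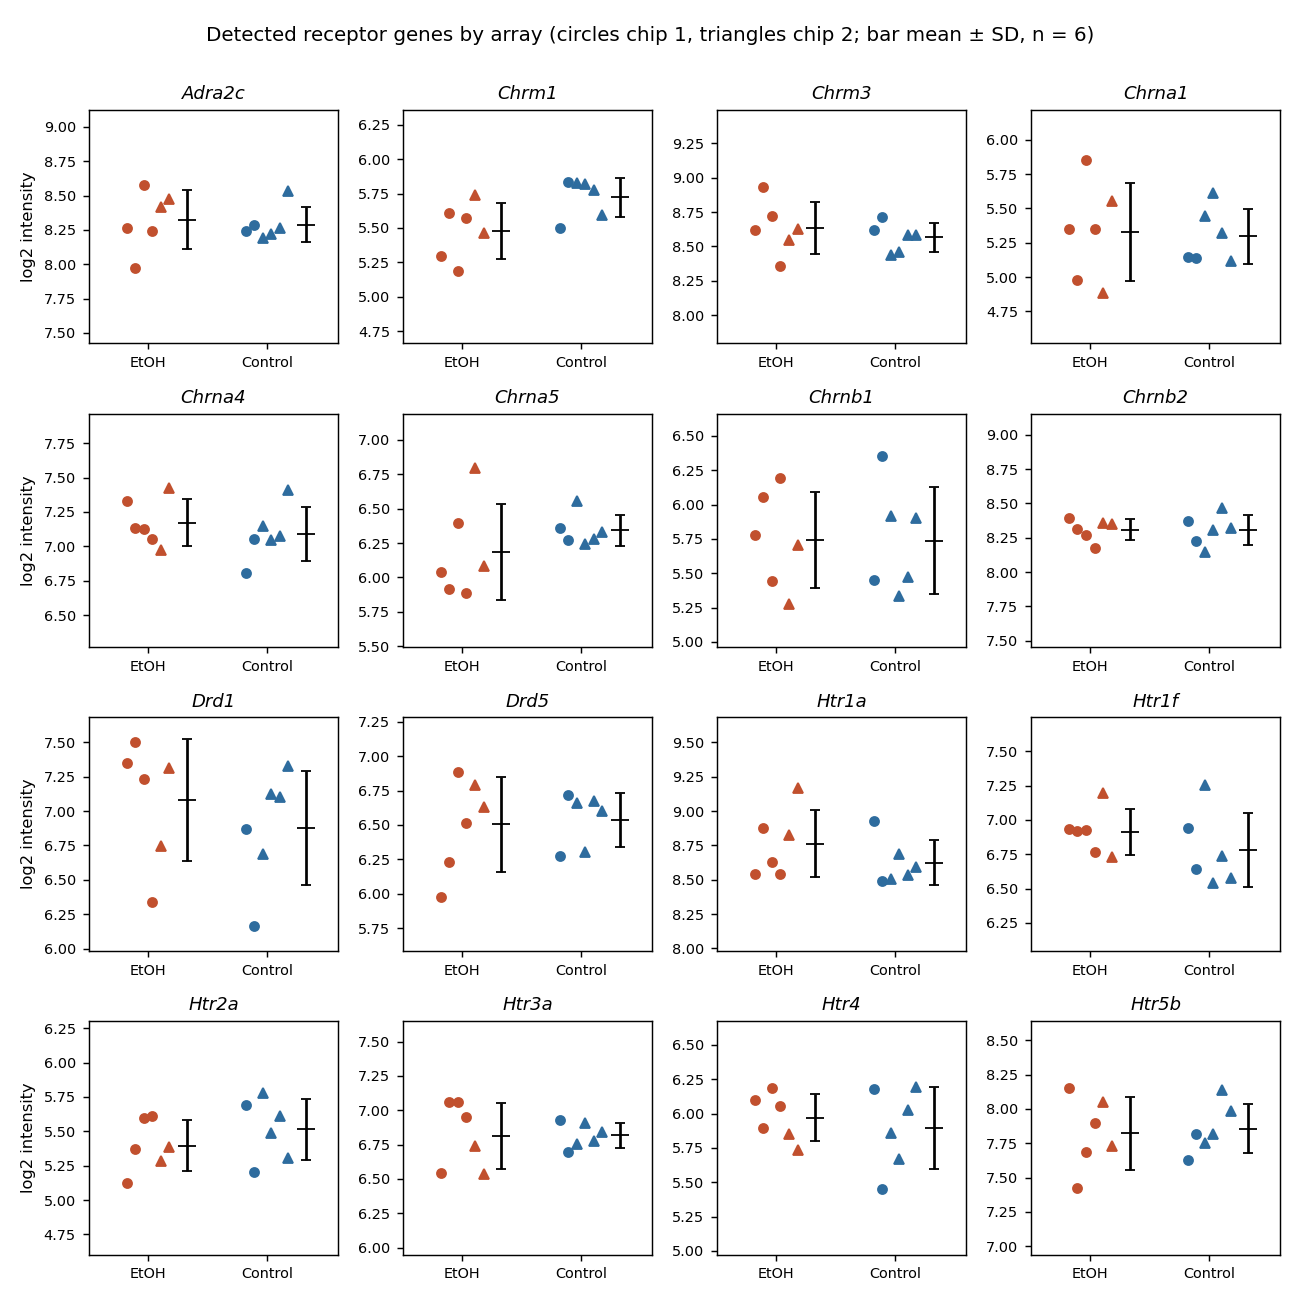
Level on the log2 scale (y axes, each spanning the same width) of the 16 detected receptor genes on the 6 EtOH and 6 Control arrays, read by the probe with the highest mean; circles are chip 1, triangles chip 2, and bars the mean ± SD of each group. The groups overlap in all 16 panels, with Drd1 spread most widely (6.16 to 7.50) and Chrnb2 least (8.14 to 8.46).

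The genes that make, take up and break down these transmitters were examined in the same RNA. Of 20 such genes, 19 had a probe and 6 were detected, beside 10936 of all 19057 named genes. The 6 detected were Ddc, Maob, Ache, Bche, Gch1 and Tph2. The rate-limiting enzyme of catecholamine synthesis Th, the noradrenaline enzyme Dbh, the transporters Slc6a2, Slc6a3 and Slc6a4 and the cholinergic genes Chat, Slc5a7 and Slc18a3 were among the 13 that were not. In EtOH 2 of the 6 were higher and 4 lower, beside 52.2% higher among all genes, 0 passed limma, and the median difference was -0.03. Tph2, the neuronal enzyme of serotonin synthesis, differed by 0.13 (95% interval -0.17 to 0.43), and by 0.03 without EtOH 5. Gch1, which makes a cofactor of these enzymes, differed by 0.02. Maob, a monoamine oxidase, differed by -0.07 and Ache (acetylcholinesterase) by -0.06.

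Downstream of the receptors, genes of G proteins, adenylyl cyclases, phospholipases, kinases, phosphodiesterases and receptor regulators were examined. Of 45 with a probe, 39 were detected, beside 10936 of all 19057 named genes. Of these 39 genes, 26 had higher and 13 lower values in EtOH, beside 52.2% higher among all genes. The median difference was 0.03, and 0 passed limma. At an unadjusted p under 0.05 limma gave 1 of the 39, beside 3.48% of all probes. That gene was Pde4d, a phosphodiesterase that degrades cyclic AMP. Its level was 5.85 ± 0.20 for EtOH and 5.53 ± 0.21 for Control (SD, n = 6 each), a difference of 0.35 (95% interval 0.10 to 0.61). Both means lay under 6, near background. Without background correction the Pde4d difference was 0.12. It was 0.28 without EtOH 5, 0.26 on chip 2 alone and 0.30 without the 4 arrays with high Ttr. In each of the last 3 fits the unadjusted limma p no longer lay under 0.05. Grk5, a receptor kinase, differed by 0.33 (-0.06 to 0.73), and by 0.08 without Control 2, its lowest array. Lower values were found for Arrb2, an arrestin that ends receptor signalling, at -0.09 (-0.20 to 0.03), and for Gnas, the stimulatory G protein subunit, at -0.11 (-0.29 to 0.08).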

How the data were processed

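Hippocampal RNA of 12 mice was measured on Illumina bead arrays. The authors deposited, per the file headers, the intensity of 45281 probes per array, linear and not normalized, and beside it a detection p-value. Per the submitters' processing notes, GenomeStudio 1.9.0 was used. Another deposited table, also of intensity, had medians of 135.6 to 135.7 and ranked probes as the matching array did, so it was taken as quantile-normalized and served as an alternative. Columns left without a sample numbered 0.

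Intensities were background-corrected, quantile-normalized and taken to log2 by the neqc function (offset 16; limma 3.58.1, R 4.3.3), and 20172 probes with a detection p under 0.05 on at least 6 arrays were kept. Groups were compared by limma (lmFit, eBayes, two-sided) with the chip as a term and Benjamini-Hochberg adjustment over the kept probes at 0.05. The number of arrays limits the precision. A single difference was also tested by an exact permutation test that exchanged labels inside each chip. The fit was also run on simulated data with independent noise and no chip effect, unlike the arrays, and no result above rests on it. Symbols came from the platform annotation: 34885 probes name 1 gene, 18 several and 10378 none, and RefSeq (GRCm38.p6) changed 0 of them. Promoter windows on chromosome 18 were not counted. The files give no genome build. Values array by array are given for the 8 receptor genes with the smallest p and the 8 with the largest range. In each pathway list the 2 genes with the smallest p per direction are named. Members, gene lists and rules were chosen with earlier results of these data known. Alternatives changed the background correction, normalization, filter, chip term, variance model, array weights, replicate number, Ttr and the arrays used.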

Additional observations from a re-analysis of the deposited data

Results flagged for a closer look

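Of 58 sets of 6 arrays examined (21 receptor and 8 pathway probes in 2 groups), 4 held an array far from the others, where chance gives about 2.9, or about 1 in 20. Each ratio divides the distance to the closest array by the whole range of the group. Control 6 had the highest Adra2c among Control arrays, at 8.534 against 8.282 for the nearest (ratio 0.739). Control 3 had the highest Chrna5 among Control arrays, at 6.559 against 6.36 (ratio 0.635). On the Chrm1 probe with the lower mean, EtOH 4 was the lowest EtOH array, at 5.152 against 5.518 (ratio 0.632). Control 2 had the lowest Grk5 among Control arrays, at 4.924 against 5.818 (ratio 0.747). Of the detected receptor probes, it was also the lowest Control array for Drd1, Htr1a, Htr2a, Htr3a, Htr4 and 1 probe each of Adra2c and Chrna4. It was the highest Control array for Drd5, Chrm3, Chrnb1 and 1 Chrm1 probe.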

How the results depend on the processing

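Probes past the threshold of 0.05 stayed at 0, among the receptors and among all probes, under every alternative run. A threshold of 0.1 was applied only to the fit on all 12 arrays, where it also gave 0. The lowest limma adjusted p over all probes in any alternative was 0.0709, without Control 2, which lies under 0.1. Receptor probes at an unadjusted p under 0.05 numbered at most 1 with all arrays kept in the fit and a filter applied (Chrm1 without the chip term or with the chip as a random block), 1 within chip 2 (Htr1a), and 0 to 4 with 1 array left out, the 4 without EtOH 5. With no filter, 3 of 68 probes reached it (Adra1b, Chrm5 and Chrna7, none of them detected), beside 4.22% of all probes. Detected receptor probes numbered 21 as reported and 38 when 1 array sufficed. Under a detection p of 0.01 on all 12 arrays 14 were left, without either Chrm1 probe or any probe of Chrna1, Chrnb1, Htr2a and Htr4. The median difference of the receptor genes was 0.03, and -0.051 with the replicate block, -0.0044 on chip 1 alone, -0.0023 on chip 2 alone, 0.07 with median scaling, 0.01 without background correction, from 0.0081 to 0.06 with 1 array left out, and 0.06 without the 4 arrays with high Ttr. Same-numbered arrays of the groups deviated together with correlations of 0.0789 to 0.268, over 0.1 in 5 of 6 pairs. High Ttr fell on the numbers 2 and 4 in both groups, and 2 of 6 EtOH arrays matched their own number best. These values do not settle whether the numbers mark pairs, and the main fit did not take them as pairs. The replicate block left calls at 0 and 11 of 21 receptor probes higher in EtOH. Of 539 recomputed receptor differences, 64 had the other sign, and 5 of 21 probes kept theirs throughout: both Chrm1 probes and 1 each of Chrna4, Htr1f and Htr2a. For these shifts the cause was not tested. Signal near background limits the 7 receptor probes with a mean under 6.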
